A study of Mus musculus with 8 samples.

Results

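The 10 genes described here are those through which brain cells read glucocorticoid hormone, together with the metallothioneins. They were taken by symbol from a table of 54446 Ensembl gene identifiers, and all 10 were found, each with 1 identifier. By role they were 2 receptors (Nr3c1, Nr3c2), 5 glucocorticoid target genes (Fkbp5, Tsc22d3, Sgk1, Zbtb16, Pdk4) and 3 metallothioneins (Mt1, Mt2, Mt3). The study used adeno-associated virus, injected stereotaxically into the medial prefrontal cortex of mice, to alter Ino80e, which encodes a component of a chromatin remodeller. Poly(A) RNA of that tissue was sequenced in 8 libraries, of which 4 carry the label Ino80e overexpression and 4 the label wild type. The sources used here do not give strain, sex, age, the promoter in the virus or whether wild-type mice received a control virus. Whether the 4 replicates of a group were different mice is also not stated, and p-values then measure only the spread between libraries, which may be technical. The comparison asks whether transcripts of these genes differed between those groups.

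Glucocorticoids released from the adrenal gland enter the brain and bind receptors that act as transcription factors. The mineralocorticoid receptor, encoded by Nr3c2, has the higher affinity for corticosterone, and the glucocorticoid receptor, encoded by Nr3c1, is occupied mainly when hormone is high, as after stress or at the daily peak. Bound receptors enter the nucleus and induce genes such as Fkbp5, whose product holds the receptor in a state of low affinity and so closes a negative feedback loop. Metallothioneins are small proteins that bind zinc and copper through cysteines. Mt1 and Mt2 are induced by metals through the factor MTF1 and also by glucocorticoids, mainly in glia, whereas Mt3 is expressed chiefly in the brain and responds little to metals.

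The coding sequences of the metallothioneins are shown first, because the cysteine codons are what these genes share. The 2 best-measured of them also had the lowest unadjusted p-values among the 10 genes in the main fit. They are from GENCODE M21 transcripts on GRCm38, 5′ to 3′ from the start codon and without the stop codon, with each cysteine codon in capitals.
Mt1: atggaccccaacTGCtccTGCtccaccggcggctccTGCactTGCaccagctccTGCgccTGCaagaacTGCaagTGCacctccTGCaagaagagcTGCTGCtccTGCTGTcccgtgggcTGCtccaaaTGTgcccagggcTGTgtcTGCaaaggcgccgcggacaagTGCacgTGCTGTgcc
Mt2: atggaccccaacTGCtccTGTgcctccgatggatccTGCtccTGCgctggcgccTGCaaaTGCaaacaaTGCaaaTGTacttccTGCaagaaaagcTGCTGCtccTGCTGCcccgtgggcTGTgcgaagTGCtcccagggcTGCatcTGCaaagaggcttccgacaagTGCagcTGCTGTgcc
Mt3: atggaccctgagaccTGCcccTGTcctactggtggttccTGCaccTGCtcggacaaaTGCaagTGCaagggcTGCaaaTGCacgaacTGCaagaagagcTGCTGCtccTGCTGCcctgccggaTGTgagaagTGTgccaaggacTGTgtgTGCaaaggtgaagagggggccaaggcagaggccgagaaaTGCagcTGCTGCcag
Each of the 3 holds 20 cysteine codons, 16 of them TGC and 4 TGT, in 61 codons for Mt1 and Mt2 and 68 for Mt3. Cysteine thus takes 32.8% of the codons of Mt1 and Mt2 and 29.4% of those of Mt3. Mt1 and Mt2 were identical at 145 of 183 aligned bases (79.2%), Mt1 and Mt3 at 134 of 204 (65.7%) and Mt2 and Mt3 at 137 of 204 (67.2%). The longest run of identical bases was 20 between Mt1 and Mt2 and 27 between Mt1 and Mt3. All 3 genes lie on chromosome 8 on the plus strand of GRCm38, Mt3 at 94152607 to 94154146, Mt2 at 94172664 to 94173568 and Mt1 at 94179082 to 94180327, and each coding sequence is split over 3 exons.

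The 250 bases before the RefSeq start sites of Mt2 and Mt3 are printed to show the metal response element core, the site bound by MTF1, in one gene and its absence from the window of the other. The core was searched on both strands as TGCGCNC and as TGCACNC, with matches counted separately where they overlap, and matches are in capitals.
Mt2, chr8:94172368-94172617, plus strand, GRCm38.p6: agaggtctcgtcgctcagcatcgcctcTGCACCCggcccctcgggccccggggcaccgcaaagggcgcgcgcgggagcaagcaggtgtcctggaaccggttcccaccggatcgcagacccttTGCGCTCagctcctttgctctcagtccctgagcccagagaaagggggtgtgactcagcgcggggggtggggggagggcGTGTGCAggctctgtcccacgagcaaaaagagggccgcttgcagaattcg
Mt3, chr8:94152357-94152606, plus strand, GRCm38.p6: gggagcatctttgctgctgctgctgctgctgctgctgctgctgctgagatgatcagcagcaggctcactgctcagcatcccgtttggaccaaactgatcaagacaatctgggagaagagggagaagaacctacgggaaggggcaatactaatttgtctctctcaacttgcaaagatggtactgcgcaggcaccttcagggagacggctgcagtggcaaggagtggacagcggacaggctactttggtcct
Mt2 held 3 matches and Mt3 none. Over 32851 RefSeq windows of the same length, 21.4% held at least 1 match and 5.17% at least 2. The window of Mt1, at 94178839 to 94179088, held 1 and is not printed. It ends just past the annotated start of Mt1 at 94179082. The printed window of Mt2 ends at 94172617, short of the annotated start of Mt2 at 94172664. A match describes letters only and is not evidence of binding. The RefSeq table held a window for 8 of the 9 genes searched, all but Zbtb16, and Nr3c1 was not searched.

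The full palindromic glucocorticoid response element, AGAACA and TGTTCT with any 3 bases between them, reads the same on both strands and was found before 1 of the 6 RefSeq start sites of Sgk1, a kinase gene long used as a readout of glucocorticoid action. The same letters were present in 3 of the 32851 windows (0.00913%). The 15 matching bases, on chromosome 10 at 21993701 to 21993715, begin 189 bases before that start and are in capitals.
Sgk1, chr10:21993681-21993735, plus strand, GRCm38.p6: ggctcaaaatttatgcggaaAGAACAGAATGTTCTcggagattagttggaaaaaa
No other window searched among Nr3c2, Fkbp5, Tsc22d3, Pdk4, Mt1, Mt2 and Mt3 held the full palindrome. Sites that depart from these letters or lie outside the windows were not searched.

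The libraries held 44762378 to 60490153 counts. Any 2 libraries differed by more than sampling noise, with a chi-square of at least 9.07 per degree of freedom. Ino80e itself stood at 74.1, 23.4, 23.3 and 45.0 CPM (read counts scaled to library size) in replicates 1 to 4 of the group labelled overexpression and at 22.3, 19.5, 25.5 and 20.7 CPM in wild type. Replicates 2 and 3 thus lay inside the wild-type range, so directions given here follow the labels and not a measured rise of Ino80e. Markers of cortical tissue were present in every library, with summed levels of 6 cortical excitatory markers from 554 to 650 CPM. Markers of neighbouring tissue varied within groups: the sum of 6 choroid plexus markers reached 1120.0 CPM in wild-type replicate 4, against 8.71 to 108.5 CPM in the other wild-type libraries and 13.1 to 108 CPM in those labelled overexpression. The sum of 6 striatal neuron markers ran from 130.2 to 254 CPM in wild type and from 129.5 to 292 CPM in the group labelled overexpression, where each of the 6 had the higher mean, and the part of either tissue in the results was not tested. In bulk tissue, fewer cells of a type and less RNA per cell cannot be told apart.

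None of the 10 genes passed the test of edgeR at an adjusted p under 0.05, the threshold used here, beside 0.0340% of all 17636 genes tested. Limma-voom called none either, nor did DESeq2, which gave no adjusted p for Pdk4 and Mt2. With p under 0.05 before adjustment there were 3 genes above 0 (Mt3, Mt1 and Fkbp5) and 1 below (Zbtb16), where 5.24% of all genes tested were above 0 and 5.43% below at that p. The 10 genes were chosen with earlier results of these libraries known, so this count carries no test. Mt3 was the only member whose 4 libraries labelled overexpression all lay above the 4 wild-type ones, and none had all 4 below. Such a separation was seen in 2.82% of all genes tested in the upward direction and in 3.02% in the downward direction. The median log2 fold change was 0.039 over the 10 genes and 0.002 over all genes tested.

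**Figure D1:**
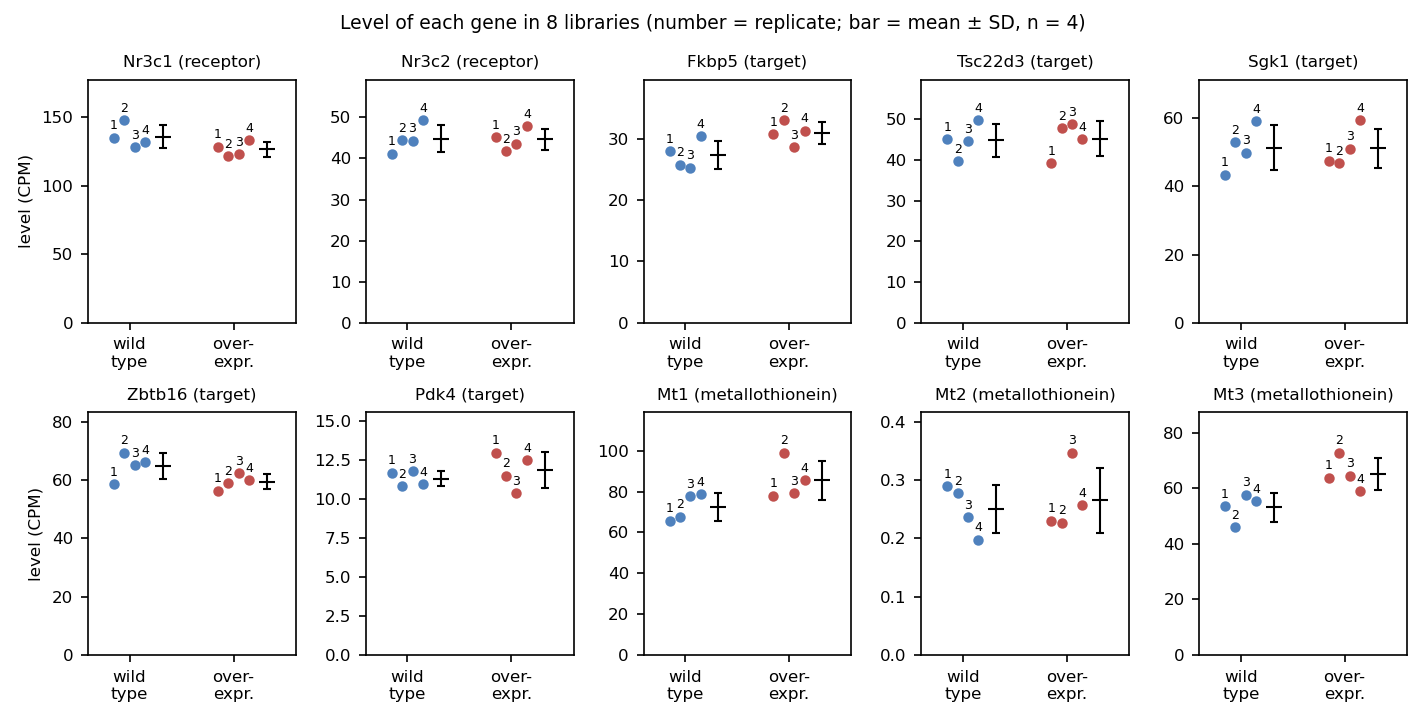
Level of each of the 10 genes in CPM (vertical axis, from 0, scaled per gene) in the wild-type libraries (blue) and those labelled overexpression (red). Each point is a library with its replicate number, and the bar is the mean ± SD of 4. Mt3 is the only panel in which the red points all stand above the blue ones, at 58.9 to 72.9 against 45.9 to 57.7 CPM.

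To compare levels between genes, CPM was divided by the length of the merged exons in kilobases. In wild type Mt1 and Mt3 stood highest, at 58.1 ± 5.35 and 49.9 ± 4.8 CPM per kilobase (SD, n = 4), with ranges that overlapped. The order was then Nr3c1 (17.7 ± 1.10), Zbtb16 (12.3 ± 0.849), Sgk1 (10.5 ± 1.33), Tsc22d3 (10.3 ± 0.935), Nr3c2 (6.92 ± 0.516), Pdk4 (3.22 ± 0.141), Fkbp5 (2.89 ± 0.246) and Mt2 (0.426 ± 0.0708), all in CPM per kilobase. The ranges of Zbtb16 and Sgk1, of Sgk1 and Tsc22d3, and of Pdk4 and Fkbp5 overlapped, and those of the other neighbours below Mt3 did not. The place of Mt2 is uncertain, because an antisense transcript covers most of its exon bases. The order of the 10 genes was the same in the libraries labelled overexpression. The merged exons of Mt1 (1246 bases) and Mt3 (1066 bases) are longer than their main coding transcripts (549 and 536 bases). Per kilobase of those transcripts the wild-type levels were 132 and 99.2 CPM, so Mt1 stayed ahead of Mt3 on either length.

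The glucocorticoid receptor gene Nr3c1 was present at 135, 148, 128 and 132 CPM in wild-type replicates 1 to 4 and at 129, 122, 123 and 133 CPM in the libraries labelled overexpression. Replicates 2 and 3 of the latter were the lowest of the 8, wild-type replicate 2 was the highest, and the groups overlapped. The log2 fold change was -0.10 (SE 0.054, edgeR adjusted p = 0.518), a ratio of 0.933 with a 95% interval of 0.864 to 1.008. With an offset for transcript GC content it was -0.0094. Nr3c1 lies on chromosome 18 at 39410545 to 39519421, minus strand.

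The mineralocorticoid receptor gene Nr3c2 stood at 41.1, 44.5, 44.3 and 49.2 CPM in wild type and at 45.2, 41.7, 43.6 and 47.9 CPM in the libraries labelled overexpression. The means of 44.8 ± 3.34 and 44.6 ± 2.60 CPM (SD, n = 4 each) were nearly equal and the ranges overlapped. The ratio was 0.996 with a 95% interval of 0.907 to 1.093 (edgeR adjusted p = 0.980). Nr3c2 (chromosome 8, 76899442 to 77245012, plus strand) shares 3.82% of its exon bases with an opposite-strand transcript. Neither receptor gene thus passed the test, and the intervals bound how large a difference these libraries allow.

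Fkbp5, the feedback cochaperone and a common marker of receptor activity, was present at 28.0, 25.7, 25.3 and 30.3 CPM in wild type and at 30.7, 32.9, 28.6 and 31.3 CPM in the libraries labelled overexpression. The highest library was overexpression replicate 2, the lowest were wild-type replicates 2 and 3, and the groups overlapped through wild-type replicate 4. On the log2 scale the difference was 0.18 (SE 0.0749), a ratio of 1.13 with a 95% interval of 1.01 to 1.257, and it did not pass (unadjusted p = 0.0279, edgeR adjusted p = 0.411). Fkbp5 (chromosome 17, 28399094 to 28517527, minus strand) shares no exon base with an opposite-strand gene.

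Zbtb16, which encodes the zinc finger repressor PLZF, had values on the other side of 0. It stood at 58.7, 69.4, 65.0 and 66.1 CPM in wild type and at 56.3, 59.03, 62.5 and 59.9 CPM in the libraries labelled overexpression. Wild-type replicate 1 lay within the overexpression range and the other wild-type libraries above it. The log2 fold change was -0.12 (SE 0.058, unadjusted p = 0.0422, edgeR adjusted p = 0.453). Fkbp5 and Zbtb16, both taken as targets that the hormone induces, therefore had fold changes of opposite sign in the same libraries, neither past the threshold over all genes.

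Sgk1, the kinase gene with the palindrome shown above, was present at 43.4, 52.9, 49.9 and 59.1 CPM in wild type and at 47.6, 46.7, 51.1 and 59.3 CPM in the libraries labelled overexpression. Replicate 4 of either group was the highest of its group, and the group means of 51.3 ± 6.53 and 51.2 ± 5.75 CPM (SD, n = 4 each) were close. The ratio was 0.997 with a 95% interval of 0.870 to 1.142 (edgeR adjusted p = 0.991). Wild-type replicate 4 is also the library with the highest choroid plexus marker sum, 1120.0 CPM, whereas overexpression replicate 4 had the lowest of its group, 13.1 CPM. Like Sgk1, the striatal marker sum was highest in replicate 4 of either group (254 CPM in wild type, 292 CPM in overexpression). So was the oligodendrocyte marker sum (6203 and 6237 CPM), and the remaining marker sums were highest in replicate 4 of neither group. The part of tissue content in the values of Sgk1 was not tested.

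Tsc22d3, which encodes the anti-inflammatory leucine zipper protein GILZ, stood at 45.1, 39.8, 44.7 and 49.7 CPM in wild type and at 39.2, 47.8, 48.8 and 45.0 CPM in the libraries labelled overexpression. Overexpression replicate 1 was the lowest of the 8 and wild-type replicate 4 the highest. The log2 fold change was 0.013 (SE 0.074, edgeR adjusted p = 0.965). Pdk4, a kinase gene that turns fuel use away from glucose, was the lowest target by CPM, at 11.7, 10.8, 11.8 and 10.95 CPM in wild type and 13.0, 11.5, 10.4 and 12.5 CPM in the libraries labelled overexpression. Its libraries labelled overexpression held both the highest and the lowest value, and the log2 fold change was 0.066 (SE 0.101, edgeR adjusted p = 0.845). For Tsc22d3 the SD within either group (4.33 and 4.06 CPM) was larger than the distance between group means. For Pdk4, with means of 11.84 CPM in the libraries labelled overexpression and 11.3 CPM in wild type, this held for the former (SD 1.145 CPM). It did not hold for wild type (SD 0.495 CPM).

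**Figure D2:**
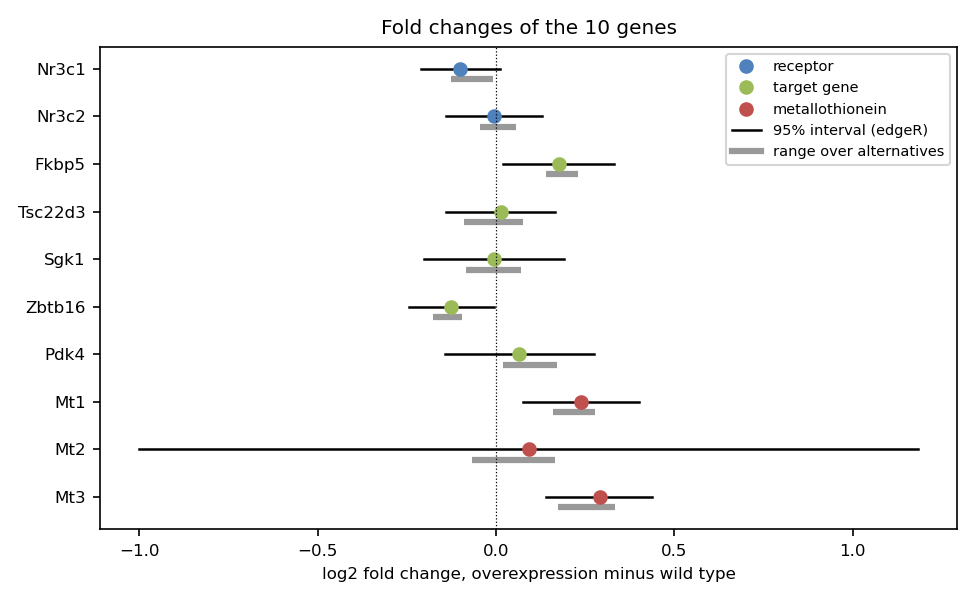
Log2 fold change (horizontal axis, overexpression minus wild type) of the 10 genes, with the 95% interval of edgeR (black line) and the range over the alternative analyses (grey bar). Mt1 and Mt3 stand at 0.24 and 0.29 with intervals above 0 that are not adjusted for the number of genes tested, and the interval of Mt2 is the widest.

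Mt3, the brain metallothionein, was present at 53.6, 45.9, 57.7 and 55.5 CPM in wild type and at 63.9, 72.9, 64.6 and 58.9 CPM in the libraries labelled overexpression. The groups did not overlap, although overexpression replicate 4 (58.9 CPM) and wild-type replicate 3 (57.7 CPM) were closer than the spread within either group (SD 5.78 and 5.12 CPM). The log2 fold change was 0.29 (SE 0.0711), a ratio of 1.22 with a 95% interval of 1.10 to 1.355. Its p before adjustment was the lowest of the 10 genes in this fit, and it missed the threshold over all genes (unadjusted p = 0.000566, edgeR adjusted p = 0.243).

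Mt1, which is mainly glial in cortex, was present at 65.7, 67.7, 77.8 and 78.6 CPM in wild type and at 78.1, 99.0, 79.2 and 85.5 CPM in the libraries labelled overexpression. Overexpression replicate 2 stood apart as the highest, while replicate 1 lay within the wild-type range. On the log2 scale the difference was 0.24 (SE 0.0767), a ratio of 1.18 with a 95% interval of 1.05 to 1.319, and it also missed the threshold (unadjusted p = 0.00664, edgeR adjusted p = 0.317).

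With no filter on low counts, a setting under which 29946 genes were tested and 83 called, both metallothioneins passed: Mt3 at log2 0.29 (SE 0.0621, edgeR adjusted p = 0.00339) and Mt1 at log2 0.24 (SE 0.0588, edgeR adjusted p = 0.0238). Under none of the other 17 alternatives did either pass. The fold changes were the same to 2 decimals as in the filtered fit, and the standard errors were smaller. Without overexpression replicates 2 and 3, a pair chosen after seeing the data, Mt3 was at 0.21 (SE 0.0829) and Mt1 at 0.17 (SE 0.0785). In both of those libraries Ino80e lay inside the wild-type range, and replicate 2 held the most Mt1 and Mt3. With the GC offset the fold change of Mt3 was 0.17 (SE 0.0675) and that of Mt1 0.20 (SE 0.0733).

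GC content and length of the transcripts moved with the fold changes over all genes. The longest transcript of Mt3 has a GC content of 62.3%, the highest of the 10 genes, and that of Mt1 52.9%. Over 11326 genes of at least 5 CPM, fold change and GC content had a rank correlation of 0.638, and fold change and exon length one of -0.217, which describe genes and not independent replicates. Among 37 of those genes with exons under 1300 bases in all and a GC content of at least 60%, as Mt3 has, 94.6% had a fold change above 0, with a median of 0.146 on the log2 scale. Among 311 genes under 1300 bases the median was 0.046 and 63.3% were above 0, beside 49.3% of all 11326. How much of the values of Mt1 and Mt3 goes with composition beyond the offset above was not tested.

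Astrocyte markers, read because Mt1 and Mt3 are expressed in these cells, overlapped between the groups. The summed level of 10 astrocyte markers was 5912 to 6820 CPM in wild type and 5825 to 6743 CPM in the libraries labelled overexpression, and 5 of the 10 had a higher mean in the latter. Aqp4, the astrocyte water channel gene, had a log2 fold change of -0.065 (edgeR adjusted p = 0.708), Gja1, a gap junction gene, -0.068 (edgeR adjusted p = 0.648) and Gfap, the intermediate filament gene of reactive astrocytes, 0.48 (edgeR adjusted p = 0.401). None of the markers was at 0. The microglia sum (7 markers) ranged from 377 to 428 CPM in wild type and from 392 to 492 CPM in the libraries labelled overexpression, with its highest value in overexpression replicate 2, the library that also held the most Mt1, Mt3 and Fkbp5. The part of cell composition in these values was not tested.

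**Figure D3:**
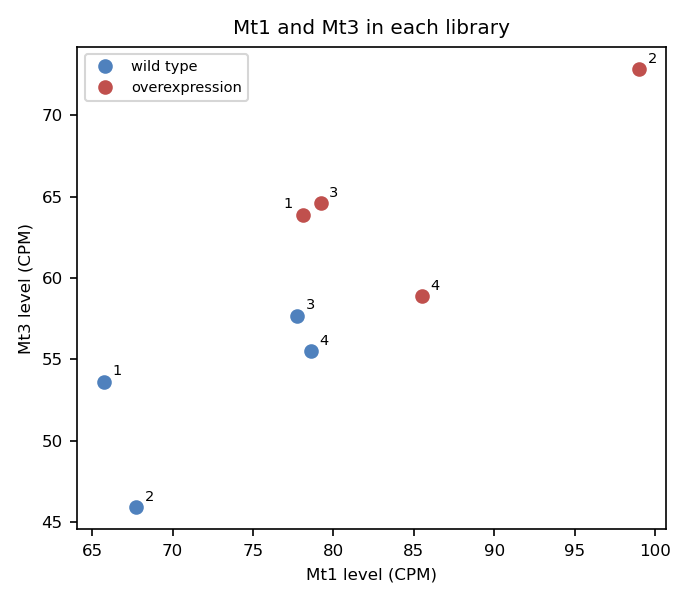
Level of Mt3 (vertical axis, CPM) against Mt1 (horizontal axis, CPM) in each library, with replicate numbers, wild type in blue and overexpression in red. Replicate 2 of the group labelled overexpression is highest on both axes (99.0 and 72.9 CPM), and wild-type replicates 1 and 2 are lowest on the Mt1 axis. The axes do not start at 0.

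Mt2 held almost no counts. It had 13, 13, 13 and 10 counts in wild type and 12, 11, 21 and 13 in the libraries labelled overexpression, 106 in all, against 32325 for Mt1, its neighbour with a similar coding sequence. Of the 588 exon bases of Mt2, 73.5% lie under Gm45774, an annotated antisense transcript on the minus strand, which itself held 1 to 17 counts per library. The libraries mark strand, but no source used here says whether the counting used it. Over the same table, 90 of 100 protein-coding genes with more than 70% of their exon bases shared with an opposite-strand gene had a mean under 1 CPM (median 0 CPM), against 44.6% of 16640 with none shared (median 2.81 CPM) and 18.4% of 4524 with up to 25% shared. With over 25 to 70% shared it was 35.9% of 654 (median 4.37 CPM), so the share did not rise steadily with overlap. Mt2 falls in the class of more than 70%, and its counts, with its low place beside Mt1, are reported as uncertain. Between the groups Mt2 had a ratio of 1.06, with a 95% interval of 0.500 to 2.27 (edgeR adjusted p = 0.965). Differences within that wide interval could not be told from none at this depth.

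Across the 8 libraries the genes of one role were compared pairwise, 14 pairs in all. Mt1 and Mt3 gave Pearson r = 0.830 (exact permutation p = 0.0166, adjusted p = 0.232 over 14 pairs) and Spearman rho = 0.810 (exact permutation p = 0.0218, adjusted p = 0.305). The ratio of Mt1 to Mt3 CPM ranged only from 1.22 to 1.47. Centred on the group means, r was 0.649, and without the 2 libraries farthest from the median of Mt1 it was 0.758 (exact permutation p = 0.118, n = 6). This was the highest r of the 14 and it did not pass the adjustment.

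No pair of the 5 target genes passed either. Of their 10 pairs, r was above 0 in 6 and below 0 in 4, from -0.683 for Zbtb16 and Pdk4 (exact permutation p = 0.0648, adjusted p = 0.450) to 0.500 for Sgk1 and Zbtb16 (exact permutation p = 0.207, adjusted p = 0.648). Spearman rho was -0.619 for the former (exact permutation p = 0.115, adjusted p = 0.529) and 0.643 for the latter (exact permutation p = 0.0962, adjusted p = 0.529). Without the 2 libraries farthest from the median of the first gene r was -0.410 and 0.783. Fkbp5 and Sgk1, 2 standard readouts of receptor activity, gave r = 0.103 (exact permutation p = 0.800, adjusted p = 0.861) and rho = 0.048 (exact permutation p = 0.935, adjusted p = 0.935), with r = 0.251 without the farthest 2. The receptor pair gave r = 0.199 (exact permutation p = 0.641, adjusted p = 0.861) and rho = 0.262 (exact permutation p = 0.536, adjusted p = 0.821), with r = 0.113 without the farthest 2.

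**Figure D4:**
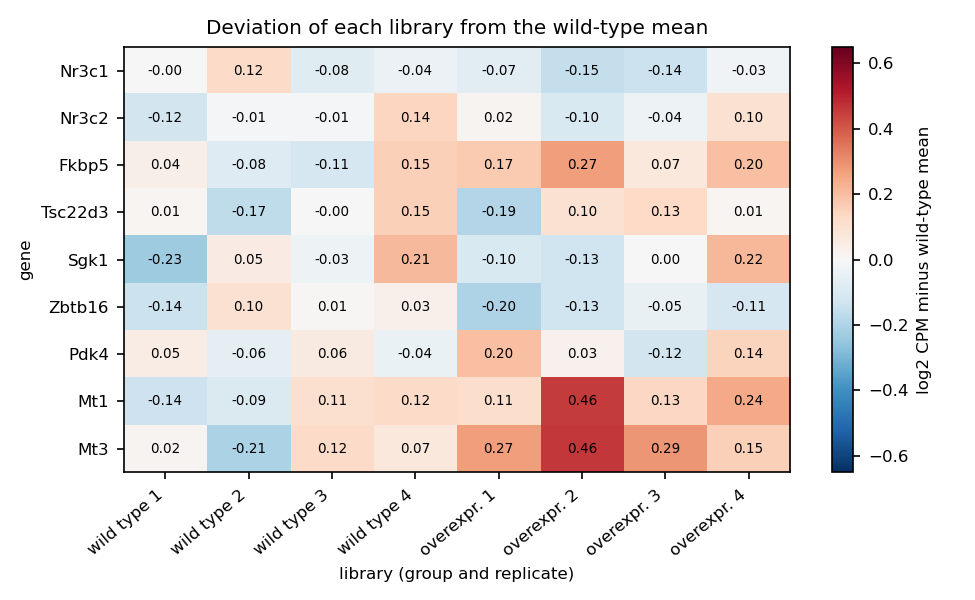
Log2 CPM of 9 genes in each library minus the wild-type mean of that gene (colour and printed value), with libraries in columns. Mt2 is left out for its low counts. The Mt1 and Mt3 rows are above 0 in all 4 columns of the group labelled overexpression, as is Fkbp5, while Zbtb16 and Nr3c1 are below 0 there. Some wild-type columns share these signs. Nr3c1 is below 0 in wild-type replicates 1, 3 and 4, Mt3 above 0 in replicates 1, 3 and 4, and Mt1 above 0 in replicates 3 and 4.

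The genes most like a member over the 8 libraries were sought among 10912 protein-coding genes of at least 5 CPM. They are listed as a description, because the best of so many r values is high by selection. For Nr3c1 they included Rc3h2 (r = 0.976), Xrcc5 (0.974) and Vps13a (0.973). For Fkbp5 they were Exosc2 (r = 0.972), Fstl1 (0.970), Tmem201 (0.965) and Mafk (0.951), none of them in the glucocorticoid lists used here. For Mt1 they were Rpl35a (r = 0.977), Rps12 (0.947), Rpl38 (0.945) and Rassf2 (0.944). Of these 4, 3 encode ribosomal proteins, and Rpl35a stood highest in overexpression replicate 2 (58.9 CPM) and lowest in wild-type replicate 1 (34.9 CPM), as Mt1 did.

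Other genes that glucocorticoids are known to induce mostly had fold changes above 0, but none passed. Of 24 tested, 19 were above 0 and 5 below, with a median log2 fold change of 0.157 against 0.002 over all genes tested, of which 50.5% were above 0. None passed edgeR, DESeq2 or limma-voom, although DESeq2 gave no adjusted p for some, among them Map3k6, Ddit4 and Il6ra. By edgeR 4 had an unadjusted p under 0.05, all above 0, where 5.24% of all genes tested were above 0 at that p. Without overexpression replicate 3 the median was 0.099, with the GC offset it was 0.114, and without overexpression replicates 2 and 3 it was 0.144 with 16 of 24 above 0. Rhob, which encodes a small GTPase, stood at 285, 288, 301 and 296 CPM in the libraries labelled overexpression and at 280, 245, 262 and 265 CPM in wild type. Its log2 fold change was 0.15 (SE 0.049, edgeR adjusted p = 0.315), or 0.074 (SE 0.0455) with the GC offset, and its ranges did not overlap. Of the 24 genes, 2 were separated upward in this way and 0 downward, where 2.82% and 3.02% of all genes tested were.

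Map3k6, a stress-activated kinase gene, was also separated, at 5.40, 5.31, 8.85 and 5.22 CPM against 4.70, 4.40, 4.43 and 4.75 CPM, but replicate 3 carried most of the difference. Its log2 fold change was 0.44 (SE 0.167, edgeR adjusted p = 0.364) and 0.22 (SE 0.156) without that library. Ddit4, an inhibitor of mTOR signalling (log2 0.22, SE 0.0909), and the interleukin receptor gene Il6ra (log2 0.28, SE 0.129) had adjusted p of 0.401 and 0.441 by edgeR, with overlapping ranges. With the GC offset the log2 fold changes of Map3k6, Ddit4 and Il6ra were 0.33, 0.13 and 0.27. The clock gene Per1, named after its values were seen, shows how unlike the libraries of 1 group were: it stood at 89.6, 88.1, 145 and 137 CPM in the group labelled overexpression and at 79.6 to 107 CPM in wild type.

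Genes that supply the hormone or assist the receptor had a median of -0.026 over 15 tested of 16, with 6 above 0 and 9 below. None passed edgeR, DESeq2 or limma-voom, and 2 of the 15 had an unadjusted p under 0.05 by edgeR, both below 0, where 5.43% of all genes tested were below 0 at that p. Stip1, the cochaperone that hands the receptor from HSP70 to HSP90, was at 167, 175, 172 and 167 CPM in the libraries labelled overexpression and at 185, 207, 179 and 192 CPM in wild type. The groups did not overlap (log2 -0.17, SE 0.0515, edgeR adjusted p = 0.315). Of the 15 genes, 1 was separated downward in this way and 0 upward, where 3.02% and 2.82% of all genes tested were. Hsp90aa1, one of the HSP90 genes, had a log2 fold change of -0.12 (SE 0.048, edgeR adjusted p = 0.392) and the cochaperone Ptges3 one of -0.14 (SE 0.0749, edgeR adjusted p = 0.514). With the GC offset Hsp90aa1 was at -0.045 and Ptges3 at -0.059, whereas Stip1 was at -0.19. Hsd11b1, which encodes the enzyme that regenerates active hormone, was present at 12.7 to 15.6 CPM in wild type and 12.8 to 14.3 CPM in the libraries labelled overexpression (named after its values were seen).

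**Figure D5:**
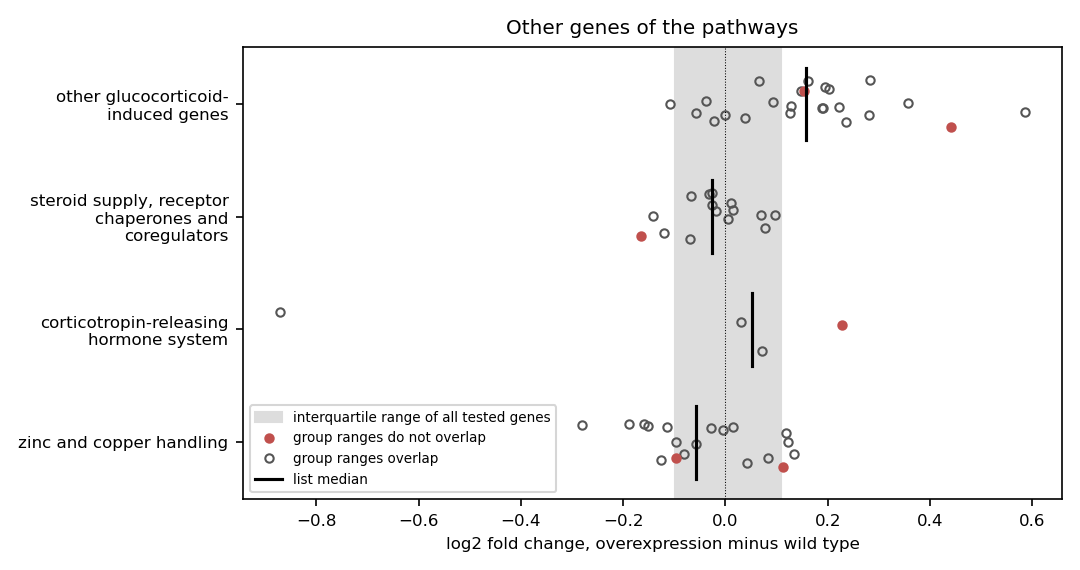
Log2 fold change (horizontal axis, overexpression minus wild type) of each tested gene in 4 lists of related genes, with the list median (black bar). Red points are genes whose group ranges do not overlap, and the grey band spans the interquartile range of all tested genes, -0.099 to 0.108. The median of the other glucocorticoid-induced genes, 0.157, lies outside the band and those of the other lists inside it.

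In the corticotropin-releasing hormone system 4 of 5 genes were tested and none passed edgeR or limma-voom, with a median of 0.051. DESeq2 gave no adjusted p for any of the 4, so it could not call them. Crhbp, which encodes the binding protein that sequesters the peptide, stood at 22.3, 21.8, 22.5 and 19.7 CPM in the libraries labelled overexpression and at 18.6, 19.7, 17.7 and 17.7 CPM in wild type (log2 0.23, SE 0.0802, unadjusted p = 0.00893, edgeR adjusted p = 0.337). The groups came close, at 19.71 and 19.67 CPM, but did not overlap, and Crhbp was the only gene of the 4 with an unadjusted p under 0.05, where 5.24% of all genes tested were above 0 at that p and 2.82% were separated in that direction. The peptide gene Crh (log2 0.072, SE 0.167) and its receptor Crhr1 (log2 0.030, SE 0.0845) had adjusted p of 0.904 and 0.925 by edgeR. Crhr2, the other receptor, had a log2 fold change of -0.87 (SE 0.453, edgeR adjusted p = 0.501) that rested on wild-type replicate 4, at 2.24 CPM against 0.356 to 0.897 in the other wild-type libraries. Without that library, the one with the highest choroid plexus sum, it was -0.14 (SE 0.467).

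Genes of zinc and copper handling had a median of -0.058 over 19 tested of 20, 7 above 0 and 12 below. None passed edgeR, DESeq2 or limma-voom, and 1 on each side had an unadjusted p under 0.05 by edgeR, a share near the 10.7% of all genes tested. Mtf1, which encodes the metal sensor itself, was at 33.6, 31.4, 34.3 and 33.7 CPM in wild type and 28.5, 31.2, 32.1 and 34.0 CPM in the libraries labelled overexpression (log2 -0.081, SE 0.0692, edgeR adjusted p = 0.692; named after its values were seen). Slc30a1, a zinc exporter gene that MTF1 induces along with Mt1, had a log2 fold change of -0.15 (SE 0.0753, edgeR adjusted p = 0.477), opposite in sign to Mt1. Sod1, the copper and zinc superoxide dismutase, ranged from 94.8 to 101 CPM in the libraries labelled overexpression and from 85.9 to 93.4 CPM in wild type, without overlap (log2 0.11, SE 0.0513, edgeR adjusted p = 0.440). The zinc transporter gene Slc39a12, named after its values were seen, was separated in the other direction, at 39.6 to 43.8 CPM in the libraries labelled overexpression and 44.2 to 47.4 CPM in wild type. Of the 19 genes, 1 was thus separated in each direction, where 2.82% of all genes tested were separated upward and 3.02% downward. The zinc transporter genes Slc30a9 (log2 -0.13, SE 0.0572) and Slc39a10 (log2 -0.12, SE 0.057) had adjusted p of 0.440 and 0.475 by edgeR. With the GC offset Slc30a9 was at -0.057, Slc39a10 at -0.047 and Slc30a1 at -0.11, whereas Sod1 was at 0.14. Mt4, the metallothionein of stratified epithelia, had 0 counts in all 8 libraries.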

How the data were processed

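Gene-level read counts, 1 column per library, were deposited by the authors as raw counts. Per the submitters' processing notes, Trimmomatic 0.39, STAR 2.7.10, featureCounts 2.0.3 and the builds mm10 and GRCm38 were used, with no role or order stated. Strand setting, annotation release and treatment of multi-mapping reads: not given in the sources used here. Libraries were stranded (dUTP), per the labels' protocols. Symbols came from GENCODE M21 (54409 identifiers matched, 37 did not), and promoters from RefSeq (GRCm38.p6).

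Genes were filtered with filterByExpr (17636 kept), scaled by TMM and tested with edgeR 4.0.16 (robust quasi-likelihood F test, R 4.3.3), with Benjamini-Hochberg adjustment over all genes tested. CPM uses TMM-scaled library sizes, and log2 CPM a prior count of 2. Intervals are 95% and unadjusted. Alternatives included DESeq2 1.42.0, limma-voom (limma 3.58.1), other scalings and filters, a GC offset (spline, 5 degrees of freedom) and libraries left out. The scripts were tested on simulated data. Correlations used exact two-sided permutation over all pairings.

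The members and lists were chosen with earlier results of these data known. Named genes were the members, up to 4 per list with the lowest p, and 4 per likeness search; 2 of the genes these rules chose are not reported here. Groups and replicate numbers came from sample titles. Same-numbered libraries did not deviate together (correlations -0.051 to 0.027).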

Additional observations from a re-analysis of the deposited data

Results flagged for a closer look

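Of 68 groups of 4 libraries examined, 5 had a library far from the other 3, where chance alone flags about 1 in 20. Map3k6 stood at 8.85 CPM in replicate 3 of the group labelled overexpression, against 5.22 to 5.40 CPM in the other 3. Crhr1 was low in replicate 4 of that group, at 19.3 CPM against 21.6 to 21.9. The oligodendrocyte marker sum was low in its replicate 1, at 4308 CPM against 5921 to 6237. The choroid plexus marker sum was high in its replicate 3 (108 CPM against 13.1 to 18.1) and in wild-type replicate 4 (1120.0 CPM against 8.71 to 108.5). No group of any of the 10 glucocorticoid and metallothionein genes held such a library.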

How the results depend on the processing

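The count of members past the threshold was 0 in all alternatives except the fit with no low-count filter, where it was 2 (Mt1 and Mt3). The count of pathway genes and of correlated pairs was 0 throughout. DESeq2 gave no adjusted p for some of these genes, among them Pdk4, Mt2, Crhbp and Map3k6, and so could not call them. Over all genes the count was 6 (2 higher, 4 lower), and 83 with no low-count filter, 28 with DESeq2, 2 with limma-voom, 2 without robust estimation, 1 with the replicate block and 1 without overexpression replicates 2 and 3, a pair chosen after seeing the data. Leaving out 1 library gave 1 to 8. The replicate number as a block, where the numbers do not pair the libraries, called 0 members, with Mt3 at 0.29 (SE 0.0814).

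Mt1, Mt3, Fkbp5 and Pdk4 kept a fold change above 0 and Nr3c1 and Zbtb16 one below 0 in all 18 alternatives, from 0.16 to 0.28 for Mt1, 0.17 to 0.33 for Mt3, 0.14 to 0.23 for Fkbp5 and -0.18 to -0.094 for Zbtb16. Fold changes near 0 changed sign, and the cause was not tested. With upper-quartile scaling Nr3c2 was 2e-04 and Sgk1 0.0014. With the GC offset Nr3c2 was 0.022, Sgk1 0.009 and Crhr1 -0.065. Without overexpression replicates 2 and 3 Nr3c2 was 0.055, Tsc22d3 -0.090, Sgk1 0.058, Mt2 -0.036 and Crhr1 -0.014. Leaving out 1 library gave -0.045 to 0.042 for Nr3c2, -0.043 to 0.076 for Tsc22d3, -0.083 to 0.070 for Sgk1, -0.068 to 0.17 for Mt2 and -0.027 to 0.072 for Crhr1. With at least 1 CPM in 4 libraries Mt2 was not tested. Depth limits Mt2 among the members (0.258 CPM, SE 0.528) and such list genes as Lcn2 (0.149 CPM, SE 0.832), and 3 list genes were too low to test; for the 9594 genes of at least 10 CPM the median SE was 0.0678 on the log2 scale.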
